A study of Mus musculus with 20 samples.

Results

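The genes described here are 10 genes of fibroblast-type matrix, chosen by symbol from a table of 54532 genes: Col1a1, Col1a2, Col3a1, Col5a1, Col5a2, Fn1, Thbs1, Tnc, Postn and Lox. All 10 were found, each as a single protein-coding gene. Their messenger RNA was measured in articular chondrocytes, the cells that make and keep the cartilage of joints, taken from mice aged 6 weeks. The cells were kept for 48 h with 1 of 4 additions. Vehicle was DMSO. 25HC was 20 µM 25-hydroxycholesterol, an oxysterol. 25HC3S was 20 µM 25-hydroxycholesterol-3-sulfate, the same sterol with a sulfate on its 3-hydroxyl group. GW3965, at 2 µM, is a synthetic non-steroidal agonist of the liver X receptors. Each group held 5 libraries, 20 in all. The labels give neither strain nor sex, nor say if the 5 of a group are separate animals or cultures. The p-values therefore speak only of the variation between libraries, part of which could be technical.

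Chondrocytes in cartilage make type II collagen and aggrecan. When they are released and grown on plastic they are known to dedifferentiate, that is, to flatten and turn to the matrix of fibroblasts: type I collagen, with types III and V in the same fibrils, fibronectin, and matricellular proteins such as thrombospondin-1, tenascin-C and periostin, which act on cells more than they build structure. Lysyl oxidase then crosslinks the collagen outside the cell.

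Levels are FPKM, a fragment count corrected for gene length and for library depth, so that levels of different genes can be compared per length. The libraries held 14653777 to 19365220 fragments in genes. Of the 12752 genes tested, a gene was called where its adjusted p (limma on log2(FPKM + 1), Benjamini-Hochberg over all tested genes) was under 0.05. All 16 markers of chondrocytes were above 0.5 FPKM in some library, with Col2a1 at 1059 to 3501 FPKM in Vehicle. Macrophage markers were present too, 8 of 8, with a summed level of 332 to 798 FPKM over the 20 libraries. In 4 libraries, Vehicle replicates 2, 3 and 4 and 25HC3S replicate 1, only 237 to 1171 genes had exactly 1 fragment, against 1808 to 2057 in the other 16, and their share of mitochondrial fragments ran from 0.369% to 4.07%, against 0.889% to 1.41%. Results are therefore given with all 20 libraries and with the 16, a choice made after seeing the data, in which Vehicle is replicates 1 and 5. In bulk RNA, fewer cells of a type and less RNA per cell cannot be told apart.

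The matrix genes were among the most abundant messages of these cells in every group. Together they took 11.4% to 15.5% of all fragments in genes, and Fn1 alone took 3.77% to 6.34%. By mean FPKM over the 20 libraries, with the gene lengths used, the order was Fn1 (4737), Thbs1 (3705), Col1a1 (2812), Lox (2077), Col1a2 (1445), Col5a2 (482), Col3a1 (361), Col5a1 (301), Tnc (112) and Postn (18.3). Fn1 was the gene with the highest FPKM in the median library, and Postn had a median rank of 2239. Each gene was above the next in the order in 16 to 20 of 20 libraries. The least separated neighbours were Col3a1 and Col5a1 (16 of 20) and Col1a1 and Lox (17 of 20). Col1a2 above Col5a2, Col5a1 above Tnc and Tnc above Postn held in 20 of 20.

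**Figure D1:**
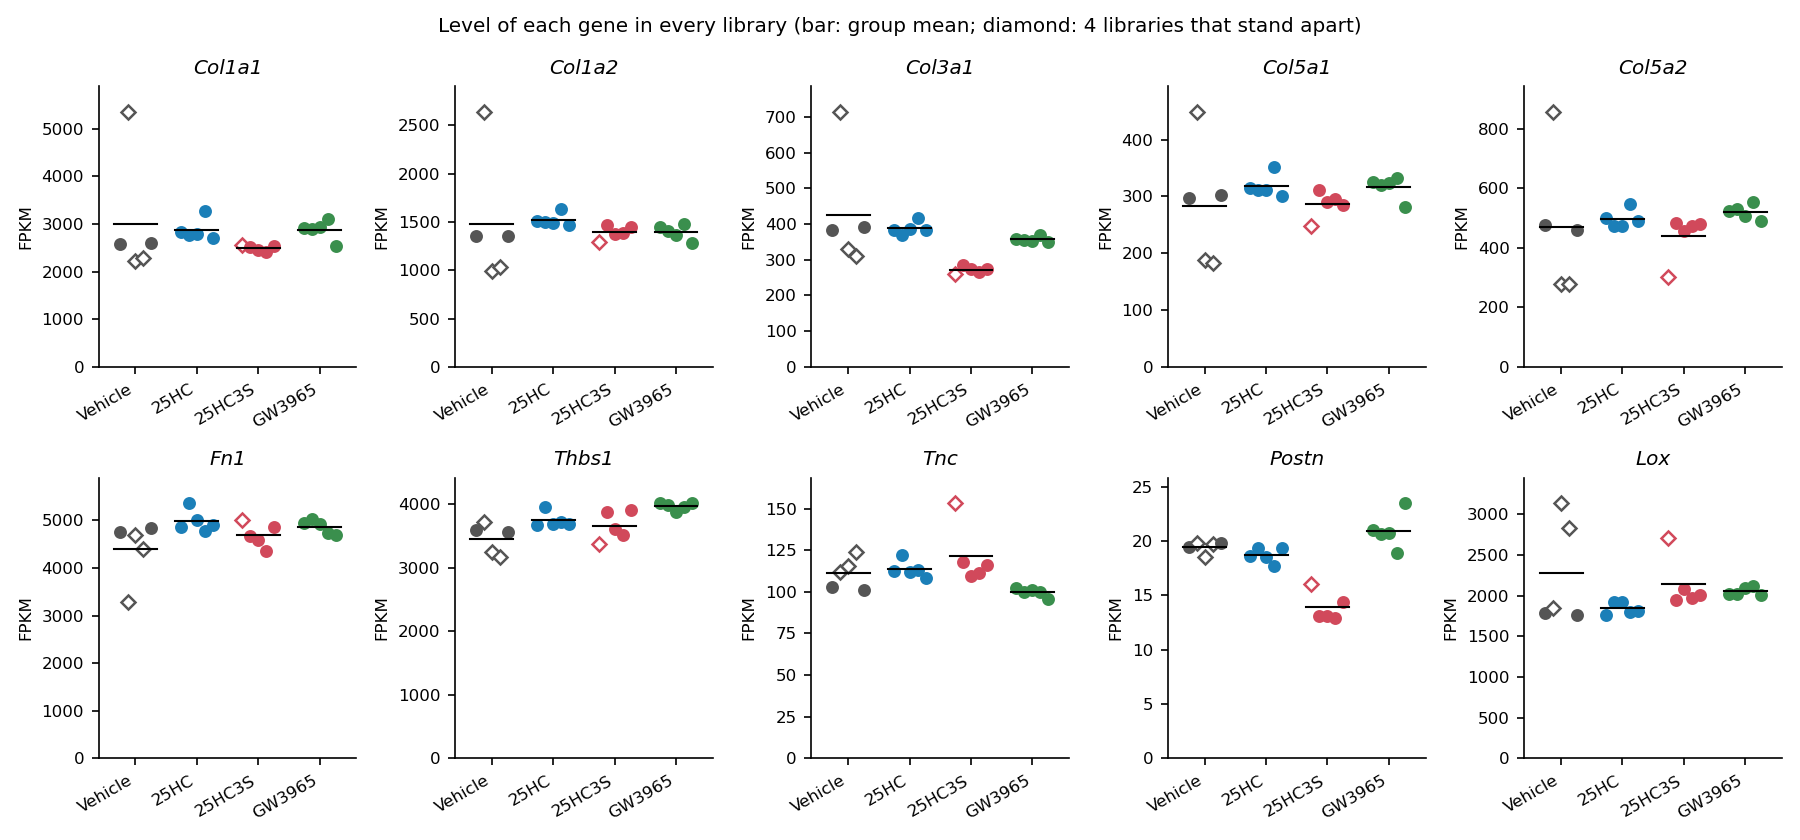
FPKM (vertical axis, from 0) of each of the 10 genes in the 20 libraries, grouped by addition, with replicates 1 to 5 from left to right, a bar at the group mean and open diamonds for the 4 libraries that stand apart. Postn and Col3a1 in 25HC3S lie below every library of the other groups, and Vehicle replicate 2 holds the highest value of each of the 5 collagens.

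Across the treatments, 2 genes stood lower with 25HC3S than in every library of the other groups: Postn, which encodes periostin, and Col3a1, which encodes type III collagen. How many of all genes do so was not counted. In either direction, 25HC3S did not overlap Vehicle for 2.16% of all tested genes, 25HC for 7.29% and GW3965 for 12.2%. Postn was called in each comparison of 25HC3S. Col3a1 missed the threshold in the fit of all 20 libraries and was called with the 16. When only the 2 groups compared were fitted, it was called against 25HC and GW3965 and not against Vehicle. The 3 genes of highest mean FPKM, Fn1, Thbs1 and Col1a1, had fold changes of 0.869 to 1.15 over the 6 comparisons with 20 libraries.

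Col1a1 encodes the α1 chain of type I collagen (chromosome 11, 94936224 to 94953042 on the plus strand, with 51 exons). Its FPKM was 2571, 5358, 2228, 2275 and 2603 in Vehicle replicates 1 to 5 and 2840.1, 2764, 2794, 3264 and 2696 in 25HC. It was 2561, 2517, 2455, 2406 and 2531 in 25HC3S and 2920.4, 2887, 2926, 3111 and 2539 in GW3965. The Vehicle libraries spanned all the others, with replicate 2 far above every library and replicates 3 and 4 below every library, and 25HC3S lay below 25HC without overlap. The log2 difference of 25HC3S from 25HC, the same dose of the sterol without the sulfate, was -0.20 ± 0.17 (SE), with an adjusted p of 0.834. Without the 4 libraries it was -0.21 ± 0.057 (SE) and was called (adjusted p = 0.0345), as was 25HC3S against GW3965, at -0.21 ± 0.057 (SE) (adjusted p = 0.0151). Against Vehicle, the 95% intervals ran from -0.33 to 0.36 for 25HC and from -0.33 to 0.37 for GW3965.

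Col1a2 encodes the α2 chain of the same collagen (chromosome 6, 4504814 to 4541544 on the plus strand, with 52 exons). It stood at 1356, 2642, 994, 1038 and 1354 FPKM in Vehicle and 1507, 1502, 1486, 1637 and 1463 in 25HC. In 25HC3S it was 1289.9, 1467, 1373, 1382 and 1444, and in GW3965 1443, 1403, 1364, 1483 and 1281. Vehicle replicate 2 was again the highest library and replicates 3 and 4 the lowest, and the other 3 groups overlapped each other. No comparison was called with 20 or with 16 libraries. The log2 difference of 25HC3S from 25HC was -0.13 ± 0.17 (SE) with an adjusted p of 0.857 and a 95% interval of -0.49 to 0.24.

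Col3a1 encodes type III collagen, which joins type I in fibrils of skin, vessels and loose tissue and is scarce in healthy cartilage (chromosome 1, 45311538 to 45349706 on the plus strand, with 51 exons). Its FPKM was 382, 715, 329.7, 312 and 392 in Vehicle and 384, 369.6, 387, 416 and 384 in 25HC. In 25HC3S it was 261, 285, 275, 266 and 273, and in GW3965 359, 354, 353, 369 and 349.8. All 5 libraries of 25HC3S lay below all 15 of the other groups, and the highest GW3965 library, 369.4, was just under the lowest of 25HC, 369.6. With 20 libraries the log2 difference of 25HC3S was -0.58 ± 0.15 (SE) from Vehicle, with an adjusted p of 0.0546. It was -0.51 ± 0.15 (SE) from 25HC (adjusted p = 0.174) and -0.39 ± 0.15 (SE) from GW3965 (adjusted p = 0.196), so that no comparison was called in this fit. When only the 2 groups compared were fitted, with all their libraries, the limma adjusted p was 0.726 against Vehicle. It was 0.000346 against 25HC and 0.0002 against GW3965, in fits that called 205 and 1009 of all genes. Without the 4 libraries all 3 were called, at -0.49 ± 0.041 (SE) (adjusted p = 1.26e-05), -0.50 ± 0.032 (SE) (adjusted p = 1.98e-07) and -0.38 ± 0.032 (SE) (adjusted p = 4.36e-07), or 0.709 times the level in 25HC on the FPKM + 1 scale. Leaving out Vehicle replicate 2 alone gave -0.37 against Vehicle, with an adjusted p of 0.00315. GW3965 was below 25HC by 0.12 ± 0.030 (SE) with 16 libraries (adjusted p = 0.0149), a comparison of unequal doses.

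The 250 bases before the start of Col3a1 are shown because this gene and Postn are the 2 whose level was lowest in every 25HC3S library. They are from RefSeq on GRCm38.p6, at chr1:45311288-45311537 on the plus strand, and the start is the one in the deposited table. Capitals mark a TATAAA match.
Col3a1: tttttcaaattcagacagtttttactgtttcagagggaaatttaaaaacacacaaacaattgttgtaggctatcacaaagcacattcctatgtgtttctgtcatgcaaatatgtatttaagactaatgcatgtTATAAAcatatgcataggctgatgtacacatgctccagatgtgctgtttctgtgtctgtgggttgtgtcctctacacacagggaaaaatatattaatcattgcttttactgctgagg
The match lies 117 to 112 bases before the start. Both strands were searched for TATAAA, for CCAAT, for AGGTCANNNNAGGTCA (2 half-sites as bound by liver X receptors) and for TCACNCCAC (a sterol regulatory element). Of 32851 promoter windows of this length, 12.4% held TATAAA, 33.8% CCAAT, 1.05% TCACNCCAC and 0.0152% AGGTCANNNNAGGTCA. In the Col3a1 window only TATAAA matched, which describes these letters and no binding site.

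Col5a1 and Col5a2 encode the chains of type V collagen, which lies inside type I fibrils and limits their width. Col5a1 (chromosome 2, 27886425 to 28039514 on the plus strand, with 66 exons) had 297, 449.5, 187, 183 and 303 FPKM in Vehicle and 316, 311, 312, 351 and 301 in 25HC. It had 249, 311, 290.5, 296 and 286 in 25HC3S and 326, 319, 323, 332 and 282 in GW3965. Vehicle replicate 2 was the highest and replicates 3 and 4 the lowest of all libraries, 25HC3S replicate 1 was next lowest, and the groups overlapped in every comparison. No comparison was called with 20 or with 16 libraries.

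Col5a2 lies next to Col3a1 on chromosome 1, tail to tail with a gap of 24614 bases (chromosome 1, 45374321 to 45503282 on the minus strand, with 54 exons). Its FPKM was 477, 857, 277, 278 and 460.1 in Vehicle and 499, 475, 474, 548 and 491 in 25HC. It was 302, 484, 458, 474 and 479.7 in 25HC3S and 523, 529.5, 506, 554 and 489.8 in GW3965. Vehicle replicates 3 and 4 and 25HC3S replicate 1 stood far below the rest, at 302 FPKM or less, and 25HC3S lay below GW3965 without overlap. The log2 difference of 25HC3S from Vehicle was 0.014 ± 0.22 (SE) with 20 libraries and 0.016 ± 0.056 (SE) with 16 (95% interval -0.10 to 0.13), where its neighbour Col3a1 had -0.49. 25HC3S against GW3965 was called with 16 libraries only, at -0.14 ± 0.043 (SE) (adjusted p = 0.0396).

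Fn1 encodes fibronectin, an adhesive glycoprotein that cells assemble into fibrils and on which collagen is laid down (chromosome 1, 71585520 to 71653200 on the minus strand, with 46 exons). Its FPKM was 4749.8, 3283, 4704, 4407 and 4832 in Vehicle and 4858, 5366, 5015, 4784 and 4907 in 25HC. In 25HC3S it was 5006, 4679, 4591, 4354 and 4870.2, and in GW3965 4953, 5031, 4920.1, 4739 and 4698. Vehicle replicate 2, the highest library for the collagens, was the lowest for Fn1, and the groups overlapped in every comparison. The log2 difference of 25HC from Vehicle was 0.19 ± 0.087 (SE) with 20 libraries (adjusted p = 0.156) and 0.056 ± 0.049 (SE) with 16. That of 25HC3S changed sign with the libraries used, from 0.11 to -0.052 against Vehicle. No comparison of Fn1 was called.

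Thbs1 encodes thrombospondin-1, a matricellular protein that binds CD36, CD47 and integrins and can activate latent TGF-β (chromosome 2, 118111876 to 118127133 on the plus strand, with 22 exons). Its FPKM was 3590.1, 3714, 3238, 3166 and 3555 in Vehicle and 3677, 3953, 3692, 3714 and 3679 in 25HC. In 25HC3S it was 3373, 3872, 3612, 3518 and 3911, and in GW3965 4014, 3981, 3876, 3958 and 4016. Every GW3965 library was above every Vehicle library, while the 25HC and 25HC3S libraries overlapped both groups. The log2 difference of GW3965 from Vehicle was 0.20 ± 0.061 (SE), 1.15-fold, with an adjusted p of 0.052 that missed the threshold. It was called with 16 libraries, at 0.15 ± 0.043 (SE) (adjusted p = 0.0397). 25HC3S and 25HC differed by -0.035 ± 0.061 (SE), with a 95% interval of -0.16 to 0.093.

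Tnc encodes tenascin-C, a matricellular protein of developing, healing and loaded tissue that weakens adhesion to fibronectin (chromosome 4, 63959785 to 64047015 on the minus strand, with 26 exons). Its FPKM was 103, 112, 116, 124 and 101 in Vehicle and 112, 122, 112, 113 and 108 in 25HC. It was 153, 118, 109.8, 111 and 116 in 25HC3S and 102, 99.6, 101, 99.7 and 95.8 in GW3965. The GW3965 libraries lay below those of 25HC and of 25HC3S without overlap, overlapped Vehicle, and 25HC3S replicate 1 was the highest of all 20. With 20 libraries the log2 difference of 25HC3S from GW3965 was 0.27 ± 0.081 (SE) (adjusted p = 0.0625) and that of 25HC from GW3965 was 0.19 ± 0.081 (SE) (adjusted p = 0.542). Both were called with 16 libraries, at 0.19 ± 0.034 (SE) (adjusted p = 0.0008) and 0.19 ± 0.032 (SE) (adjusted p = 0.000869). Between 25HC3S and 25HC the 16 libraries gave 0.0028 ± 0.034 (SE), with a 95% interval of -0.069 to 0.074.

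Postn encodes periostin, a matricellular protein of periosteum, tendon and healing tissue that binds type I collagen and helps it to be crosslinked (chromosome 3, 54361109 to 54391037 on the plus strand, with 22 exons). It was the least abundant of the 10. The 250 bases before its RefSeq start, 2 bases from the start in the deposited table, are at chr3:54360857-54361106 on the plus strand of GRCm38.p6. Capitals mark a TATAAA match, 26 to 21 bases before that start, and of the motifs searched no other matched in this window.
Postn: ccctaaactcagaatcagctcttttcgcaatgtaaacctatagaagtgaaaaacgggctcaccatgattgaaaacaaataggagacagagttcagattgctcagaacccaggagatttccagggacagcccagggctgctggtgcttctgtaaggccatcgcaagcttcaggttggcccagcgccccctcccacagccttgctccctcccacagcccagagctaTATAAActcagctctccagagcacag
RefSeq holds another start 1842 bases from that in the table, whose window had no match. TATAAA also matched in the windows of Tnc, whose log2 difference of 25HC3S from Vehicle was 0.12 with 20 libraries (adjusted p = 0.426).

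The FPKM of Postn was 19.4, 19.8, 18.5, 19.7 and 19.8 in Vehicle and 18.6, 19.4, 18.6, 17.7 and 19.4 in 25HC. It was 16.0, 13.1, 13.1, 12.9 and 14.4 in 25HC3S and 21.0, 20.7, 20.7, 18.9 and 23.5 in GW3965. All 5 libraries of 25HC3S lay below the other 15, replicate 1, which is among the 4 that stand apart, being the nearest to them. The mean fell from 19.4 ± 0.548 (SD, n = 5) in Vehicle to 13.9 ± 1.31 in 25HC3S, a log2 difference of -0.46 ± 0.064 (SE) and 0.728 times the Vehicle level on the FPKM + 1 scale (adjusted p = 0.000503). Against 25HC at the same dose the log2 difference was -0.41 ± 0.064 (SE) (adjusted p = 0.00186), and against GW3965, at another dose, -0.56 ± 0.064 (SE) (adjusted p = 9.8e-06). With 16 libraries the differences were -0.52, -0.46 and -0.61, all called. When only the 2 groups compared were fitted, the difference from Vehicle had an adjusted p of 0.0821. 25HC and Vehicle differed by -0.052 ± 0.064 (SE), with a 95% interval of -0.19 to 0.082.

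Markers of other cells moved in the same comparisons. In 25HC3S against Vehicle the macrophage markers Adgre1 (log2 difference -0.83 ± 0.09 (SE), adjusted p = 1.75e-05) and Mrc1 (-1.80 ± 0.13, adjusted p = 9.78e-08) fell and Cd14 rose (0.75 ± 0.11, adjusted p = 0.000606), while the other 5 of 8 did not pass. The same 3 markers passed with the same signs in 25HC3S against 25HC and against GW3965. The summed macrophage level was 332 to 599 FPKM in 25HC3S, 362 to 798 in Vehicle, 552 to 776 in 25HC and 694 to 783 in GW3965. The summed level of 7 fibroblast markers was 116 to 145 FPKM in 25HC3S, 120 to 173 in Vehicle, 157 to 184 in 25HC and 164 to 187 in GW3965. Of these, Ly6a was lower in 25HC3S than in 25HC (-0.65 ± 0.14, adjusted p = 0.0274) and than in GW3965 (-0.87 ± 0.14, adjusted p = 0.000421), and Pi16 was at most 0.5 FPKM in every library. The summed level of 16 chondrocyte markers was 2545 to 3882 FPKM in 25HC3S, 1849 to 5347 in Vehicle, 3856 to 4227 in 25HC and 4069 to 5014 in GW3965. Of the markers tested for osteoblasts (5), tendon (3) and endothelium (2), 0 passed in the 6 comparisons with 20 libraries. Adipoq, 1 of 2 for adipocytes, was lower in 25HC3S than in 25HC (adjusted p = 0.042) and than in GW3965 (adjusted p = 0.0368), and Acta1, 1 of 2 for skeletal muscle, was lower in 25HC3S than in GW3965 (adjusted p = 0.0209). Several markers of these types were present, with group means of 73.6 to 94.6 FPKM for Ibsp and 30.2 to 41.0 for Alpl of osteoblasts, and of 6.45 to 12.7 for Adipoq. The osteocyte markers Dmp1 and Sost, Vwf of endothelium, Myh4 and Ckm of muscle and Lep of adipocytes were at most 0.5 FPKM in every library.

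With the 16 libraries, where Col3a1 was called too, more markers passed as lower in 25HC3S. The share of all genes called, in either direction, rose as well. It went from 1.61% to 4.07% against Vehicle, from 0.816% to 7.38% against 25HC and from 4.63% to 18.2% against GW3965. Against Vehicle they were the fibroblast markers Ly6a (-0.61) and Dpt (-0.61), Scx of tendon (-0.32), Adipoq, and Col11a2 and Matn1 of the 16 chondrocyte markers, beside 3 macrophage markers lower and 1 higher of 8. Against 25HC they were Ly6a (-0.56), Dpt (-0.47), Ibsp (-0.27), Adipoq, Acta2 and 6 of the 16 chondrocyte markers, beside 4 macrophage markers lower and 1 higher. Against GW3965 they were Ly6a, Dpt, Scx, Tnmd, Acta2, Cspg4, Acta1, Adipoq and 6 of 16 chondrocyte markers, beside 5 macrophage markers lower and 1 higher, and Bglap of osteoblasts was higher. Over the 16, the summed macrophage level was 502 to 599 FPKM in 25HC3S and 652 to 798 in Vehicle, then replicates 1 and 5. The fibroblast sum was 119 to 145 in 25HC3S and 167 to 173 in Vehicle. The chondrocyte sum was 3368 to 3882 in 25HC3S and 3626 to 3735 in Vehicle. The part of these shifts in the levels of Postn and Col3a1 was not tested.

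Lox encodes lysyl oxidase, which oxidises lysines of collagen and elastin so that they crosslink (chromosome 18, 52516069 to 52529867 on the minus strand, with 7 exons). Its FPKM was 1789, 1847, 3136, 2826 and 1764 in Vehicle and 1765, 1918, 1918, 1801 and 1807 in 25HC. In 25HC3S it was 2705, 1947, 2078, 1968 and 2006, and in GW3965 2022, 2016, 2098, 2118 and 2000.2. Vehicle replicates 3 and 4 and 25HC3S replicate 1, all among the 4 libraries, were the 3 highest, and 25HC lay below both 25HC3S and GW3965 without overlap. With 20 libraries no comparison was called. The direction against Vehicle depended on the libraries. With 20, the log2 difference was -0.26 for 25HC, -0.051 for 25HC3S and -0.10 for GW3965. With 16 it was 0.051, 0.17 (adjusted p = 0.0304) and 0.21 (adjusted p = 0.00397). 25HC3S against 25HC was positive in both, 0.21 ± 0.14 (SE) with 20 libraries (adjusted p = 0.834) and 0.12 ± 0.032 (SE) with 16 (adjusted p = 0.0344).

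**Figure D2:**
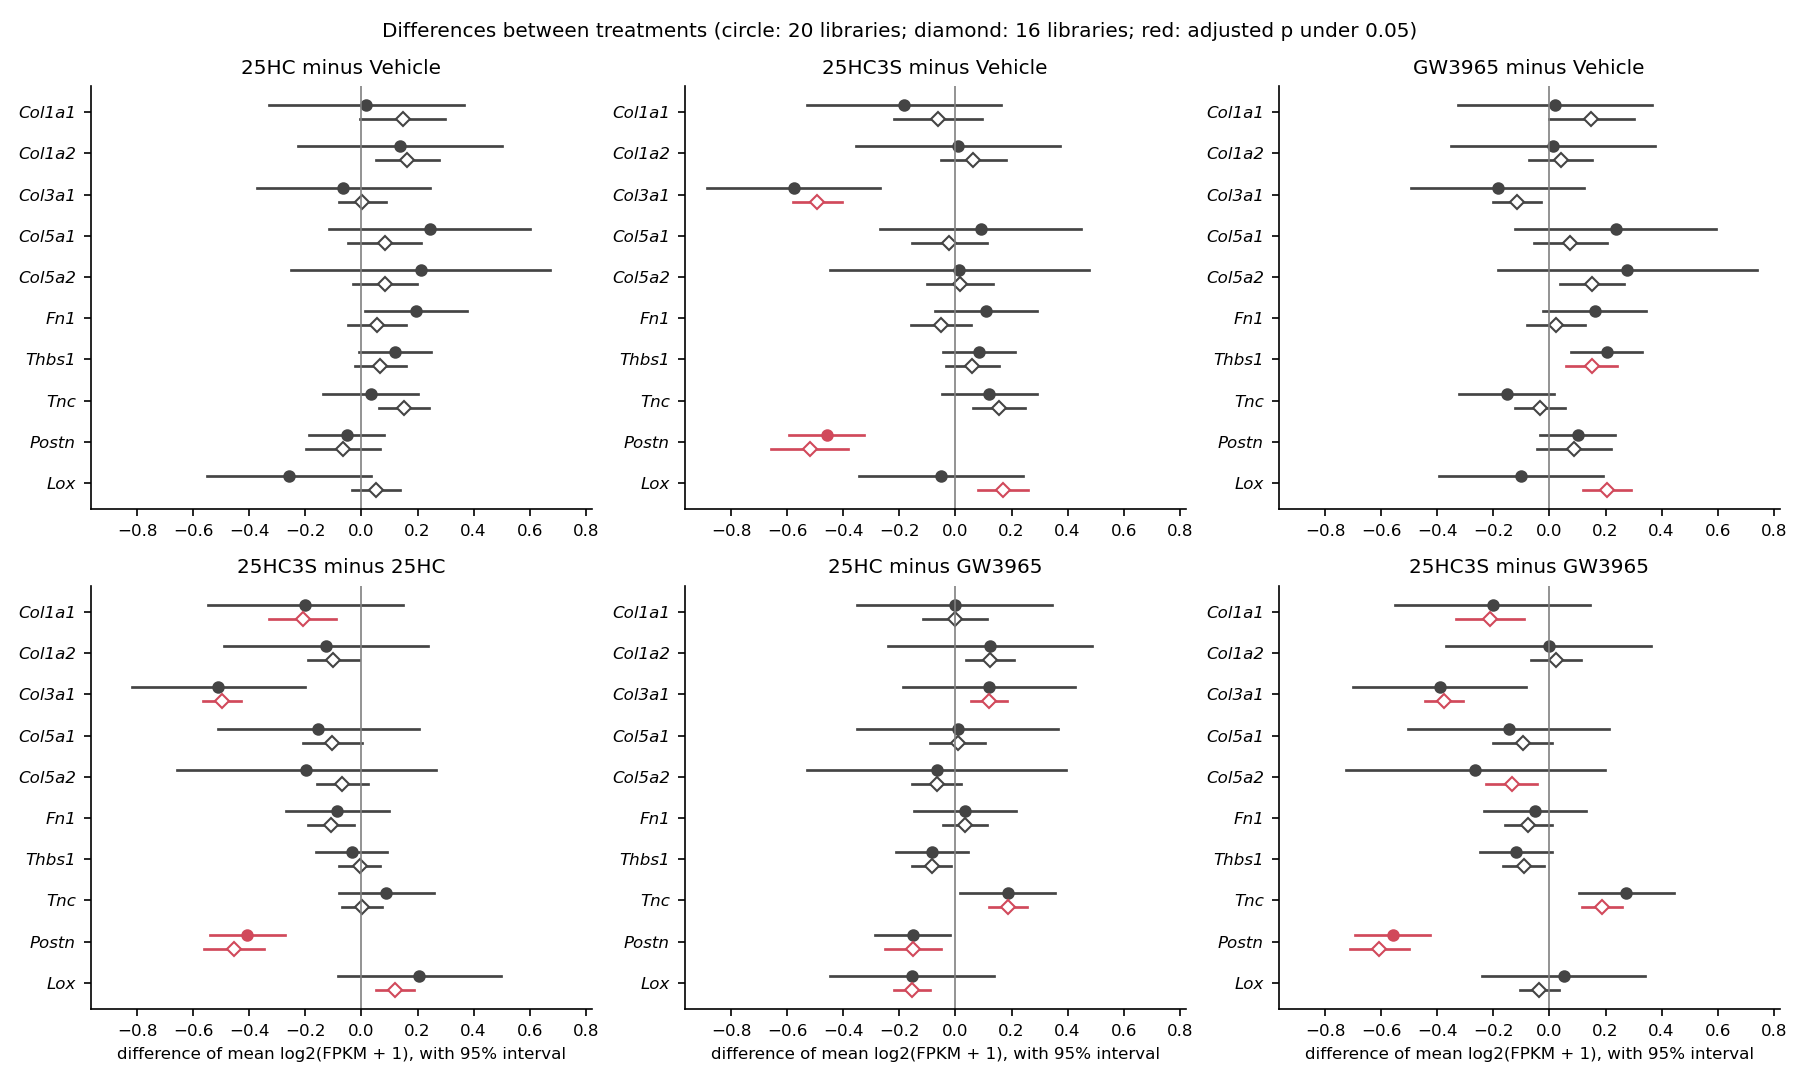
Difference of mean log2(FPKM + 1) with its 95% interval (horizontal axis) for each gene in the 6 comparisons, with 20 libraries (circles) and without the 4 libraries (diamonds). Red marks an adjusted p under 0.05: with 20 libraries Postn alone is red, in the 3 panels of 25HC3S.

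With 25HC, the free oxysterol, 0 of the 10 genes were called against Vehicle in the 20 libraries, set beside 0.0392% of all 12752 genes (5 genes, 4 higher and 1 lower, with 3863 at an unadjusted p under 0.05). Of the 10, Fn1 alone had an unadjusted p under 0.05 (0.0384). With the 16 libraries 0 were called, against 0.048%, and in 20 libraries 0 had groups that did not overlap, against 2.33%. Differences were positive for 7 of the 10 and their median was 0.076, where the median of all genes was 0.025. Leaving out Vehicle replicate 1 raised the count over all genes to 2666, and leaving out replicate 5 to 2085, while still 0 of the 10 were called. None of the genes in the 6 lists of related function was called.

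With 25HC3S, the sulfate, Postn alone of the 10 was called against Vehicle in the 20 libraries. It was lower, 1 of 10, against 1.61% of all genes (59 higher and 146 lower). Col3a1 missed the threshold (adjusted p = 0.0546), though its log2 difference, -0.58, was larger in size than that of Postn, -0.46. The adjusted p of Col3a1 was 0.0415 with median-ratio scaling and 0.726 when only the 2 groups compared were fitted. In that last fit Postn was not called either (adjusted p = 0.0821). The 16 libraries gave 3 calls, Col3a1 and Postn lower and Lox higher, against 4.07%. The groups did not overlap for 2, Col3a1 and Postn, against 2.16%. The median difference of the 10 was 0.012, that of all genes 0.021. Of 11 other collagens of fibroblast-type matrix Col8a1 was lower, at 30.8 FPKM ± 2.21 (SD, n = 5) against 40.1 ± 4.35 (log2 difference -0.37 ± 0.07 (SE), adjusted p = 0.0119). None passed of 20 genes of collagen folding and crosslinking, 20 other matricellular and elastic fibre genes, 16 receptors and 6 genes of collagen breakdown.

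GW3965 against Vehicle asks what an agonist of the liver X receptors did without a sterol. None of the 10 was called, against 6.46% of all genes (445 higher and 379 lower, with 4069 at an unadjusted p under 0.05). Of the 10, Thbs1 had an unadjusted p under 0.05 (0.00358). With 16 libraries 2 were called, Thbs1 and Lox, both higher, against 7.94%. The groups did not overlap for 1, Thbs1, against 7.07%. Leaving out Vehicle replicate 2 alone gave 3 calls, Col1a1, Col5a2 and Thbs1, all higher, while the calls over all genes stayed within 1.5 times the 824 of the 20 libraries. Leaving out Vehicle replicate 1 or replicate 5 gave 1 each, Thbs1, with 3251 and 3009 calls over all genes. The median difference of the 10 was 0.060, and that of all genes 0.024.

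In the lists of related function, of 20 genes of collagen folding, processing and crosslinking 3 rose: Serpinh1, the collagen chaperone, from 679 FPKM ± 191 (SD, n = 5) to 949 ± 28.3 (log2 difference 0.53 ± 0.15 (SE), adjusted p = 0.0454), Loxl4, a relative of Lox, by 0.36 ± 0.06 (adjusted p = 0.000431), and Adamts2, which trims procollagen, by 0.33 ± 0.07 (adjusted p = 0.0105). Among 11 other collagens, Col8a1 fell by 0.30 and Col14a1, which decorates fibrils, by 0.49. Of 20 other matricellular and elastic fibre genes Cyr61, a matricellular gene that answers YAP, rose by 0.72, and Thbs2, the closest relative of Thbs1, and Fbn2, a fibrillin, fell by 0.21 and 0.54. Of 16 receptors Itga5, the α chain of the main fibronectin receptor, rose by 0.49, and Sdc4, a syndecan that joins in its adhesions, fell by 0.48. Among genes that answer TGF-β or YAP, Cyr61, Amotl2 (0.50) and Acta2 (0.46), which marks contractile cells, rose. Of 6 genes of collagen breakdown Fap, a protease of activated fibroblasts, fell by 0.34. The median of the folding list was 0.31 with 20 libraries and 0.0034 with 16, where 4 genes passed as higher and 2 as lower. With 16 libraries Col8a1 (-0.14, adjusted p = 0.151), Fbn2 (-0.21, adjusted p = 0.133) and Acta2 (0.32, adjusted p = 0.183) were not called, while the other genes named here were.

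Markers of other cells moved with GW3965 as well. Of 8 macrophage markers Adgre1 fell by 0.32 (adjusted p = 0.0321) and Mrc1 by 0.89 (adjusted p = 0.000236), and with 16 libraries Mrc1 alone was called. The fibroblast marker Ly6a rose by 0.57 (adjusted p = 0.0191) with 20 libraries and was not called with 16, where Dpt was lower (-0.39, adjusted p = 0.000596) and the median of the 6 fibroblast markers tested went from 0.21 to -0.10. Cspg4, a marker of pericytes, rose by 0.27 (adjusted p = 0.0344). The summed level of 5 markers of smooth muscle and pericytes was 464 to 626 FPKM in GW3965 and 336 to 431 in Vehicle. Most of it was Acta2 (means of 494 and 358 FPKM), which was not called with 16 libraries. Myh11 (0.752 and 0.911) and Rgs5 (0.543 and 0.730) had lower means in GW3965, and Des (0.790 and 0.675) a higher one. Only 2 of the 5, Acta2 and Cspg4, were tested. The part of these markers in the differences was not tested.

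25HC3S against 25HC compares the sterol with and without its 3-sulfate at 20 µM and 48 h. Postn was called as lower, 1 of 10, against 0.816% of all genes (20 higher and 84 lower). Leaving out the 4 gave 4 calls, Col1a1, Col3a1 and Postn lower and Lox higher, against 7.38%. The groups did not overlap for the same 4, against 7.29%. Only 2 of the 10 had a positive difference, and the median was -0.14, where that of all genes was 0.0049. None passed of the genes of collagen folding and crosslinking, the other collagens, the other matricellular and elastic fibre genes, the receptors and the genes of collagen breakdown. For the 9 genes that did not pass with 20 libraries, the narrowest 95% interval was that of Thbs1, at -0.16 to 0.093, and the widest that of Col5a2, at -0.66 to 0.26.

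The sterols and GW3965 were given at different doses, 20 µM and 2 µM, so their values are set side by side. In 25HC against GW3965 0 of the 10 were called, against 1.74% of all genes (114 higher and 108 lower, with 957 at an unadjusted p under 0.05). Tnc (0.0336) and Postn (0.0285) had an unadjusted p under 0.05. The macrophage marker Mrc1 was higher in 25HC, by 0.61 (adjusted p = 0.0132). In the 16 libraries 4 were called, Col3a1 and Tnc higher and Postn and Lox lower in 25HC, against 13.4%. The groups did not overlap for 3, Col3a1, Tnc and Lox, against 11.1%. With 16 libraries 6 of 6 genes of collagen breakdown were higher in 25HC than in GW3965, where 0 passed with 20.

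In 25HC3S against GW3965 Postn was called as lower, 1 of 10, against 4.63% of all genes (271 higher and 320 lower). Over the 16 libraries 5 were called, Col1a1, Col3a1, Col5a2 and Postn lower and Tnc higher in 25HC3S, against 18.2%. The groups did not overlap for 4, Col3a1, Col5a2, Tnc and Postn, against 12.2%. Acta2 was lower in 25HC3S, with a log2 difference of -0.77 ± 0.11 (SE, adjusted p = 0.000109), and Adamts2 with -0.39 ± 0.07 (adjusted p = 0.00227). Mmp13, the main collagenase of cartilage, was higher by 0.37 ± 0.08 (adjusted p = 0.0049), as was Sdc4 by 0.59 ± 0.11 (adjusted p = 0.00198). The receptors Cd36, which binds thrombospondin-1, and Itga8 were lower, at -0.65 and -0.38. With 16 libraries Itga8 did not pass the filter on low values, and the other genes of related function named for this comparison were called.

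Ratios of 2 collagens within a library do not depend on how the library was scaled. Their level does depend on the gene lengths used, which are the same in every library. The ratios were compared by exact two-sided permutation of the group labels over 5 and 5 libraries, where the smallest possible p is 0.00794, adjusted over 24 tests. The ratio of Col3a1 to Col1a1 was 0.149, 0.134, 0.148, 0.137 and 0.151 in Vehicle and 0.135, 0.134, 0.139, 0.127 and 0.143 in 25HC. It was 0.102, 0.113, 0.112, 0.111 and 0.108 in 25HC3S and 0.123, 0.123, 0.121, 0.119 and 0.138 in GW3965. All 5 libraries of 25HC3S, the one that stands apart included, lay below all the others. The log2 difference was -0.40 from Vehicle, -0.31 from 25HC and -0.19 from GW3965, each with an exact p of 0.00794 and an adjusted p of 0.0317. Without the 4 libraries the differences were -0.43, -0.29 and -0.17, and with fewer libraries none passed the exact test (adjusted p = 0.213, 0.0544 and 0.0544). Against Vehicle, with 2 libraries left, no values could have passed this test, so its outcome there carries no information. GW3965 stood below Vehicle, at -0.21, with an exact p of 0.0238 and an adjusted p of 0.0571.

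The ratio of Col1a1 to Col2a1 sets the collagen of dedifferentiated cells against that of cartilage. It was 1.23, 1.53, 2.10, 2.09 and 1.27 in Vehicle and 1.17, 1.17, 1.31, 1.35 and 1.25 in 25HC. In 25HC3S it was 1.70, 1.09, 1.24, 1.13 and 1.22, and in GW3965 0.906, 0.914, 1.02, 1.06 and 1.03. Every GW3965 library lay below every other library, and Vehicle replicates 3 and 4 were the highest. GW3965 differed from Vehicle by -0.70 on the log2 scale, and 25HC and 25HC3S lay above GW3965 by 0.34 and 0.35 (exact p = 0.00794 and adjusted p = 0.0317 each). With the 16 libraries the difference of GW3965 from Vehicle, then replicates 1 and 5, shrank to -0.35 (exact test, adjusted p = 0.176). So few Vehicle libraries could not pass this test. The differences of 25HC and 25HC3S from GW3965 were 0.34 and 0.25 (exact test, adjusted p = 0.0544 for both). For 25HC against GW3965 the libraries are the same as before, and only the adjustment over the other tests changed. Col2a1, the denominator, stood at 2477 to 3223 FPKM in GW3965, against 2129 to 2430.1 in 25HC, and Col1a1 overlapped between these groups.

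For the chains of type I collagen, the ratio of Col1a1 to Col1a2 ran from 1.72 to 2.24 over the 20 libraries. Its level follows the gene lengths used, 6563 and 12426 bases. The fragments of both genes were near equal, as in Vehicle replicate 1 (319934 and 319501), so only differences between groups are read here. The ratio was lower in 25HC (log2 difference -0.13) and in 25HC3S (-0.20) than in GW3965 (exact p = 0.0159 and adjusted p = 0.0476 for both). With 16 libraries these differences were -0.13 and -0.24 (exact test, adjusted p = 0.0544 for both). None of the 4 libraries is in 25HC or GW3965, so for these groups only the adjustment over the other tests changed. The ratio of Col5a1 to Col5a2 ran from 0.524 in Vehicle replicate 2 to 0.823 in 25HC3S replicate 1, and 0 of 6 comparisons passed, with exact p from 0.0476 to 0.865.

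**Figure D3:**
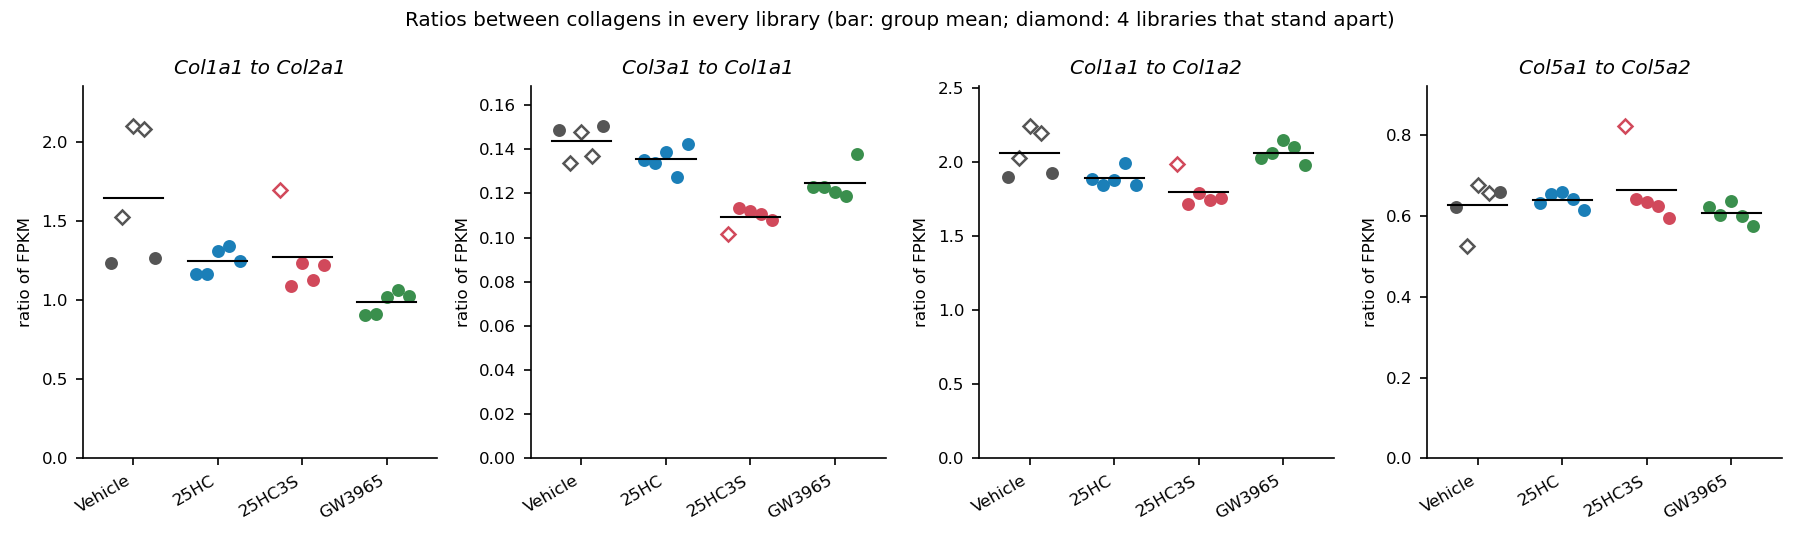
Ratio of FPKM (vertical axis, from 0) of 4 pairs of collagens in every library, with a bar at the group mean and open diamonds for the 4 libraries that stand apart. Col3a1 to Col1a1 is lowest in the 5 libraries of 25HC3S (0.102 to 0.113), and Col1a1 to Col2a1 in the 5 of GW3965 (0.906 to 1.06).

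Most of the spread within Vehicle came from its 3 libraries that stand apart, and the genes did not move there as one. Against the mean of Vehicle replicates 1 and 5, replicate 2 was higher on the log2 scale by 0.58 (Col5a1) to 1.05 (Col1a1) for the 5 collagens and differed by -0.55 for Fn1. Replicates 3 and 4 were lower for Col5a1 (-0.68 and -0.71) and Col5a2 (-0.76 and -0.75), and higher for Lox (0.82 and 0.67). 25HC3S replicate 1 was lower for Col5a2 (-0.65) and higher for Lox (0.44) and Tnc (0.43) than the other 4 libraries of its group. Postn moved by less than 0.1 in the Vehicle libraries, with differences of 0.011, -0.081 and 0.0045, but stood 0.24 higher in 25HC3S replicate 1. The coefficient of variation in Vehicle was 44.1% for Col1a1, 50.4% for Col5a2 and 28.9% for Lox with 5 libraries, and 2.82% for Postn. In 25HC it was 3.16% (Thbs1) to 7.85% (Col1a1) over the 10 genes.

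**Figure D4:**
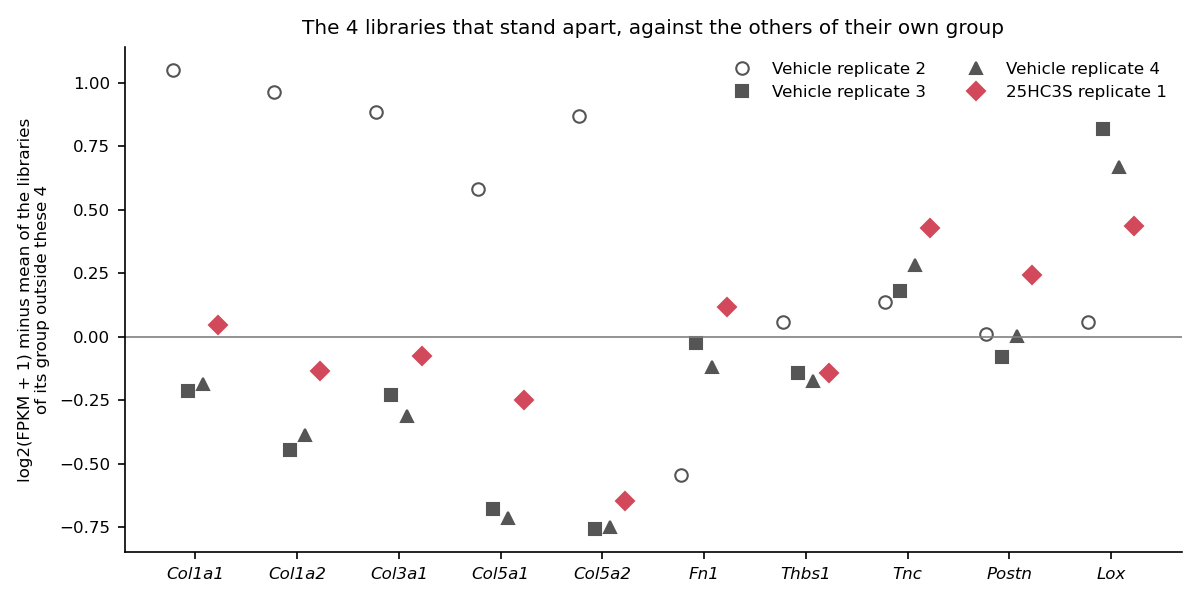
Difference in log2(FPKM + 1) (vertical axis) between each of the 4 libraries that stand apart and the mean of the other libraries of its group, by gene. Vehicle replicate 2 is high for the 5 collagens and low for Fn1, while Vehicle replicates 3 and 4 and 25HC3S replicate 1 are low for Col5a2 and high for Lox and Tnc.

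Among themselves the genes fell into sets by how they varied. As a description, Pearson's r of log2(FPKM + 1) between the 10 pairs of the 5 collagens was 0.60 to 0.96 over the 20 libraries, which share the deviations of the 4. Over the 16 others, after removing group means, it was 0.73 to 0.92. Fn1, Thbs1 and Tnc formed pairs with r of 0.70 to 0.74 over these 16, and their r with the collagens was -0.29 to 0.47. For Postn the sign depended on the group means. Its r with the collagens was -0.82 (Col5a1) to -0.54 (Col3a1) over the 16 with group means removed, -0.16 (Col1a2) to 0.80 (Col3a1) over the 16 with group means kept, and 0.011 (Col1a2) to 0.58 (Col3a1) over the 20. In 25HC replicate 4, which held the highest value of its group for all 5 collagens, Postn was the lowest of its group at 17.7 FPKM. In GW3965 replicate 5, with the lowest value of its group for all 5 collagens, Postn was the highest of all libraries at 23.5. Lox had r of -0.81 to -0.41 with the collagens over 20 libraries and of -0.30 to 0.07 over the 16. All genes of a library share its depth and composition, so these values describe libraries and carry no test.

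**Figure D5:**
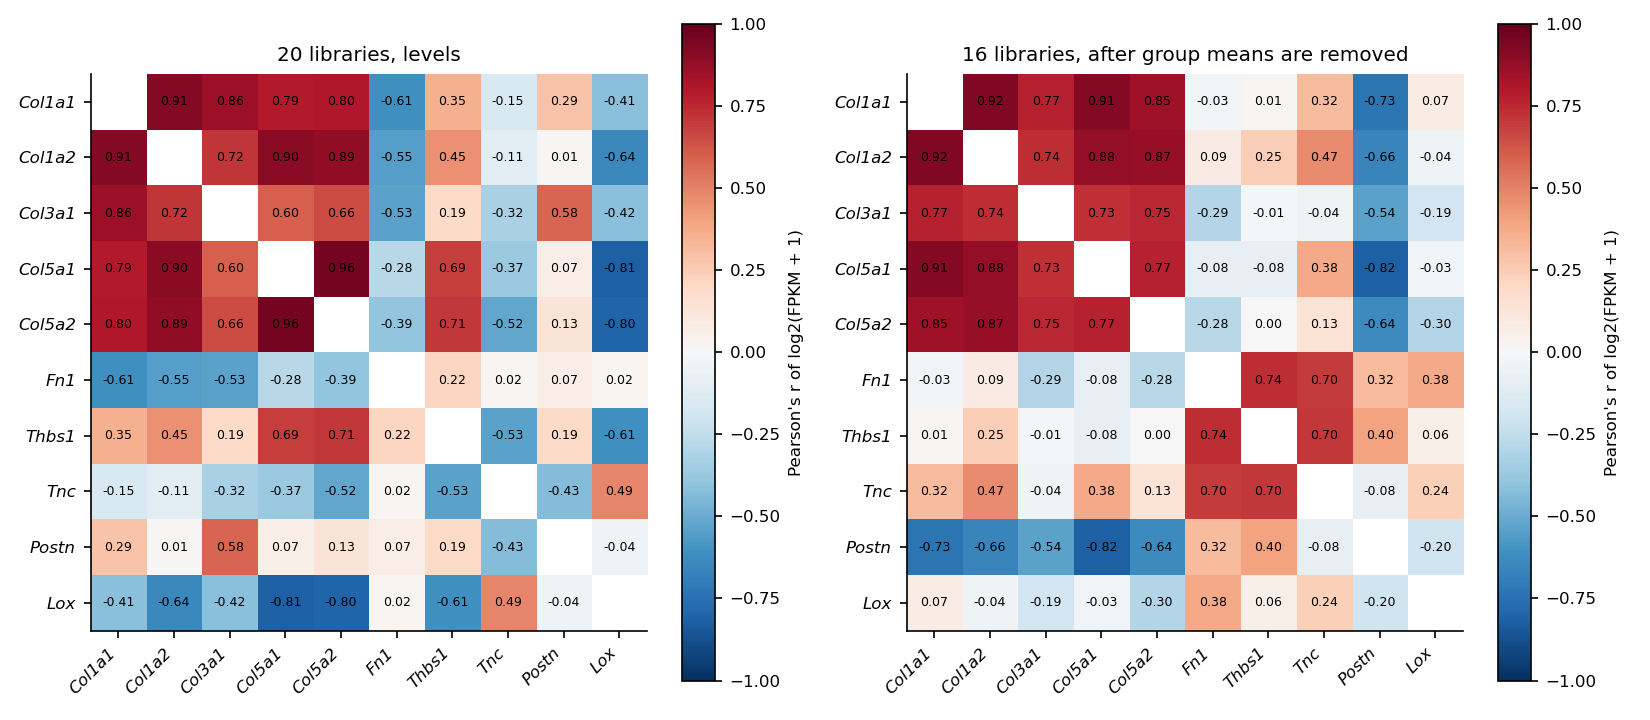
Pearson's r of log2(FPKM + 1) between the genes (both axes) over 20 libraries (left) and over 16 libraries after group means were removed (right), on a colour scale from -1 to 1. The 5 collagens form a block in both panels, and Fn1, Thbs1 and Tnc form one only in the right panel.

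Outside the list, the genes whose level followed the mean of the 10 genes (each set to mean 0 and SD 1) most closely over the 20 libraries were Itgb5 (r = 0.878), Fgfr3 (0.865), Lrrc47 (0.855), Sars (0.855) and Ltv1 (0.855). After removing group means they were Olfml3 (0.918), Megf6 (0.905), Hapln4 (0.895), Man1b1 (0.894) and Mbtps1 (0.891), over the same 20 libraries. Other annotated genes overlap 8 of the 10, and since no strand setting is given their fragments cannot be told apart from those of the members. Those listed in the table were low: Gm13372 over Col5a1 reached 8.08 FPKM, Gm43921 over Col1a2 2.80, and the others at most 1.18.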

How the data were processed

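The authors deposited 1 table of FPKM with gene coordinates and a gene length for 54532 genes. CASAVA 1.8 and HISAT2 2.0.5 were used, per the submitters' processing notes. RNA was taken with Trizol, per the labels' protocols. The program and strand setting used for counting, and the build, were not given in the sources used here. GENCODE release M21 (GRCm38) holds 99.9% of the identifiers, 98.2% of those with the same coordinates, among them 9 of the 10 members. FPKM times gene length gave whole fragments, within 0.02, for 100% of values, and these give the depth. They cover counting error only.

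FPKM are not counts, so limma 3.58.1 (R 4.3.3) was run on log2(FPKM + 1), with 1 mean per group over 20 libraries, empirical Bayes moderation with a trend and two-sided tests. The test took the 12752 genes that reached FPKM 1 in 5 or more libraries, with Benjamini-Hochberg adjustment per comparison. A difference on this scale understates the change of low genes. Intervals are 95%. Ratios were tested by exact permutation (scipy 1.17.1). The steps were tested on simulated data.

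The members and the 15 gene lists (6 of related function, 9 of cell type markers) were chosen with earlier results of these data known. Named are all members, and the genes of a list that were called, or, above 4, the 2 highest and the 2 lowest, except 1 gene that is not reported here. Alternatives were a pseudocount of 0.1, no filter, only the 2 groups compared, a replicate block, median-ratio scaling, library weights, each library left out, and the 4 libraries left out. Promoter windows were found for 5 of the 10 members.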

Additional observations from a re-analysis of the deposited data

Results flagged for a closer look

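In 13 of 40 sets of 5 libraries (10 genes in 4 groups), the highest or the lowest value was farther from its neighbour than 0.71 of the range of the set. For independent sets of normal values, chance flags about 1 in 20. The 40 sets are not independent, since the genes of a library vary together and 1 odd library can flag several sets. Of the 13, 8 are values of the 4 libraries that stand apart.

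Vehicle replicate 2 was far above its group for Col1a1 at 5358 FPKM, Col1a2 at 2642 and Col3a1 at 715, and far below it for Fn1 at 3283. Vehicle replicate 3 was the low one for Postn, at 18.5 FPKM, in a group that spans little more than 1 FPKM. 25HC3S replicate 1 was low for Col5a2 at 302 and high for Tnc at 153 and Lox at 2705.

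Among the other 16 libraries, 25HC replicate 4 was high for Col1a1 at 3264, Col1a2 at 1637 and Col5a1 at 351, and 25HC replicate 2 was high for Thbs1 at 3953. GW3965 replicate 5 was low for Col5a1 at 282.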

How the results depend on the processing

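Depth does not limit these genes, whose fragments per library ran from 2066 (Postn) to 1146206 (Fn1). The SE of a log2 difference was larger with the 4 libraries than without them for all 10 genes in all 6 comparisons.

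With limma library weights, the members called became 3 for 25HC3S vs Vehicle, 2 for GW3965 vs Vehicle, 2 for 25HC3S vs 25HC, 3 for 25HC vs GW3965 and 5 for 25HC3S vs GW3965. The calls over all genes became 16 for 25HC vs Vehicle, 769 for 25HC3S vs Vehicle, 1053 for 25HC3S vs 25HC, 1676 for 25HC vs GW3965 and 2372 for 25HC3S vs GW3965. For GW3965 vs Vehicle they stayed within 1.5 times the 824 without weights. Without the 4 libraries, the members called became 3 for 25HC3S vs Vehicle, 2 for GW3965 vs Vehicle, 4 for 25HC3S vs 25HC, 4 for 25HC vs GW3965 and 5 for 25HC3S vs GW3965. The calls over all genes became 508 for 25HC3S vs Vehicle, 922 for 25HC3S vs 25HC, 1671 for 25HC vs GW3965 and 2278 for 25HC3S vs GW3965. With only the 2 groups compared in the fit, the members called became 0 for 25HC3S vs Vehicle, 2 for 25HC3S vs 25HC, 3 for 25HC vs GW3965 and 2 for 25HC3S vs GW3965. The calls over all genes became 1 for 25HC vs Vehicle, 23 for 25HC3S vs Vehicle, 152 for GW3965 vs Vehicle, 205 for 25HC3S vs 25HC, 1427 for 25HC vs GW3965 and 1009 for 25HC3S vs GW3965. Median-ratio scaling gave 2 members for 25HC3S vs Vehicle, and a pseudocount of 0.1 gave 1 for GW3965 vs Vehicle. In both settings the calls over all genes stayed within 1.5 times those first given. Why the weights change these counts was not tested, and leaving libraries out or fitting fewer groups changes the samples and the spread used.

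The replicate numbers did not pair the libraries: 4 of 30 same-numbered pairs had deviations correlated above 0.1 (range -0.70 to 0.27), and 4 of 20 libraries correlated best with their own number. With the replicate number as a replicate block the members called did not change, and the calls over all genes were 1 for 25HC vs Vehicle and 544 for GW3965 vs Vehicle, the others staying within 1.5 times. Leaving out 1 library at a time gave ranges of 1 to 2666 for all genes called in 25HC vs Vehicle, 60 to 93 for all genes called in 25HC3S vs 25HC, 95 to 622 for all genes called in 25HC3S vs Vehicle, 444 to 3251 for all genes called in GW3965 vs Vehicle, 1 to 2 for members called in 25HC3S vs Vehicle and 0 to 3 for members called in GW3965 vs Vehicle. In the 3 comparisons with Vehicle, the highest count over all genes came without Vehicle replicate 1.

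Log2 differences or ratios whose sign turned were, without the 4 libraries Col3a1 25HC vs Vehicle (0.0037), Lox 25HC vs Vehicle (0.051), Col5a1 25HC3S vs Vehicle (-0.021), Fn1 25HC3S vs Vehicle (-0.052), Lox 25HC3S vs Vehicle (0.17), Lox GW3965 vs Vehicle (0.21), Col1a2 25HC3S vs GW3965 (0.024), Lox 25HC3S vs GW3965 (-0.036), Col1a1 to Col2a1 25HC3S vs 25HC (-0.093), Col5a1 to Col5a2 25HC vs Vehicle (-0.00076), Col5a1 to Col5a2 25HC3S vs Vehicle (-0.037) and Col5a1 to Col5a2 25HC3S vs 25HC (-0.036). With weights Lox 25HC vs Vehicle (0.036), Col5a1 25HC3S vs Vehicle (-0.032), Col5a2 25HC3S vs Vehicle (-0.0042), Fn1 25HC3S vs Vehicle (-0.035), Lox 25HC3S vs Vehicle (0.16), Lox GW3965 vs Vehicle (0.19), Col5a1 25HC vs GW3965 (-0.0095), Col1a2 25HC3S vs GW3965 (0.012) and Lox 25HC3S vs GW3965 (-0.030). With median-ratio scaling Col1a2 25HC3S vs Vehicle (-0.0038) and Col1a2 GW3965 vs Vehicle (-0.00042). Over all recomputed log2 differences, 914 kept direction and call, 40 became called, 1 (Postn, 25HC3S vs Vehicle, only the 2 groups compared) lost its call and 65 turned. Over ratios, 205 kept both, 64 lost the call, 5 gained one and 14 turned. Fewer libraries raise the smallest exact p.

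With 1 library left out, these spanned 0: Col1a1 25HC vs GW3965 (-0.050 to 0.026), Col1a1 25HC vs Vehicle (-0.069 to 0.25), Col1a1 25HC3S vs Vehicle (-0.27 to 0.047), Col1a1 GW3965 vs Vehicle (-0.066 to 0.25), Col1a2 25HC3S vs GW3965 (-0.033 to 0.024), Col1a2 25HC3S vs Vehicle (-0.11 to 0.24), Col1a2 GW3965 vs Vehicle (-0.10 to 0.25), Col3a1 25HC vs Vehicle (-0.16 to 0.14), Col3a1 GW3965 vs Vehicle (-0.28 to 0.019), Col5a1 25HC vs GW3965 (-0.033 to 0.027), Col5a1 25HC3S vs Vehicle (-0.047 to 0.28), Col5a2 25HC3S vs Vehicle (-0.14 to 0.26), Lox 25HC3S vs GW3965 (-0.036 to 0.082), Lox 25HC3S vs Vehicle (-0.14 to 0.076), Lox GW3965 vs Vehicle (-0.18 to 0.025), Tnc 25HC vs Vehicle (-0.00022 to 0.073), Col1a1 to Col1a2 GW3965 vs Vehicle (-0.022 to 0.039), Col1a1 to Col2a1 25HC3S vs 25HC (-0.093 to 0.066), Col5a1 to Col5a2 25HC vs Vehicle (-0.030 to 0.062), Col5a1 to Col5a2 25HC3S vs 25HC (-0.036 to 0.080) and Col5a1 to Col5a2 25HC3S vs Vehicle (-0.0028 to 0.11).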
